A study of Mus musculus with 32 samples.

Results

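Oxidative phosphorylation genes were taken from liver arrays of aged mice and compared by respiratory complex across 8 diet and drug groups. The members were all genes whose symbol on the array platform named a subunit family of complex I (Nduf), complex II (Sdha to Sdhd), complex III (Uqcr), complex IV (Cox4 to Cox8) or complex V (Atp5), taken from probe sets with 1 gene symbol. This gave 98 probe sets for 71 genes out of 8251 genes named on the array: 31 in complex I, 4 in complex II, 7 in complex III, 15 in complex IV and 14 in complex V. The Nduf symbols include Ndufaf1 and Ndufaf4, which help to assemble complex I and are not part of the finished enzyme. Of the 71 genes, 66 were bright enough to be tested, and Ndufa12, Cox5a, Cox6b2, Cox7a1 and Cox8a were not.

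Oxidative phosphorylation takes place in the inner mitochondrial membrane. Complexes I and II pass electrons from NADH and succinate to ubiquinone, complex III passes them on to cytochrome c and complex IV to oxygen. Complexes I, III and IV pump protons as they do so, and complex V, the ATP synthase, uses the returning protons to make ATP. Most subunits are encoded in the nucleus and imported, while a few core subunits are encoded by mitochondrial DNA. In liver, the chain carries the electrons released by fatty acid oxidation during fasting. Metformin, a biguanide that lowers blood glucose, is known as a weak inhibitor of complex I.

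The study asked which of several treatments resemble calorie restriction in liver. All mice were males of the B6C3F1 hybrid, were housed singly from 5 months of age and died at the age of 22 months, having fasted for 48 hours. Control mice (CON) received 93 kcal of a defined diet per week. From the age of 5 months, mice restricted long term (LTCR) were given 52.2 kcal per week, and mice restricted for 8 weeks (CR8) received 77 kcal per week for 2 weeks from 20 months and 52.2 kcal per week after that, both as an enriched diet that kept protein, vitamin and mineral intake per body weight close to the control level. The other groups were fed the control diet from 20 months for 8 weeks with metformin (MET), with glipizide, a sulfonylurea that stimulates insulin release (GLIP), with both drugs (GM), with rosiglitazone, which activates the fat cell receptor PPAR gamma (ROS), or with a soy isoflavone extract (SOY). Each group had 4 arrays, 1 array per mouse, and the doses are not given in the sources used here.

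Values are array intensities in arbitrary units, scaled by the authors to a common trimmed mean. Log2 differences are on the scale log2(intensity + 27), which understates changes of dim genes. "Rose" and "fell" are used for an adjusted p below 0.05 in limma, fitted across 7357 probe sets and 32 arrays with Benjamini-Hochberg adjustment. Errors after ± are SDs over 4 arrays for intensities and standard errors of the fit for log2 differences. A bulk sample cannot tell a smaller share of hepatocytes from less of a transcript in each hepatocyte.

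The promoters of 4 members are shown because these genes rose in LTCR and because their promoters differ in the motifs they hold. Each run is the 250 bases before the annotated start, 5′ to 3′ on the gene's strand, from RefSeq on GRCm38.p6. Capitals mark a match on either strand to NRF1 (TGCGCATG), GABPA (CCGGAAGT), ERR (TCAAGGTCA), YY1 (AAGATGGCG) or SP1 (GGGCGG), motifs of factors known to act on mitochondrial genes; no pair of these motifs contains one another.
Ndufv1 (chr19:4012756-4013005, minus strand): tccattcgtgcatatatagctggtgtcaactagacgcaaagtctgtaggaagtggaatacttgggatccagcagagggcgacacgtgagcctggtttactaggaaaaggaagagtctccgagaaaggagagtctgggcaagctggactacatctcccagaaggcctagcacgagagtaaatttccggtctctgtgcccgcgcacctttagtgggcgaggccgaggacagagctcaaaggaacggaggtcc
Ndufs3 (chr2:90904722-90904971, minus strand): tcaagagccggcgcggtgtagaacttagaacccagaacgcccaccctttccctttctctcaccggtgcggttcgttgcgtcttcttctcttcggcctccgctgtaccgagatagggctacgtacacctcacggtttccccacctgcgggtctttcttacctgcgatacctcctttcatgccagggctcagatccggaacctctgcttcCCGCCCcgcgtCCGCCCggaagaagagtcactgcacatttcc
Uqcrh (chr4:116075071-116075320, minus strand): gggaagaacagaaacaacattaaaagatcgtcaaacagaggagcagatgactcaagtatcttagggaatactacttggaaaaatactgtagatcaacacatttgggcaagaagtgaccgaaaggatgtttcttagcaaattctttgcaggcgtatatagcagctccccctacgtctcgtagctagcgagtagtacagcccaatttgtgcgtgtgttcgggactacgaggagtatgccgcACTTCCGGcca
Atp5l (chr9:44920743-44920992, minus strand): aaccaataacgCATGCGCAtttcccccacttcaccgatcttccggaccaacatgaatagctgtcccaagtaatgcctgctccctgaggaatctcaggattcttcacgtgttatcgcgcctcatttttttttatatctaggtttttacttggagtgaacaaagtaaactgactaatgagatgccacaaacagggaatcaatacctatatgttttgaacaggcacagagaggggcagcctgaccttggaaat
Ndufv1 had no match, Ndufs3 had 2 matches to the SP1 motif, Uqcrh had 1 to the GABPA motif and Atp5l had 1 to the NRF1 motif. Promoters were at hand for 58 of the 71 members. The NRF1 motif was in 10.3% of those 58, in 3.69% of all tested genes with a promoter and in 2.05% of all genes of the RefSeq table. The GABPA motif was in 3.45% of members, 6.73% of tested genes and 3.23% of all genes, and the SP1 motif in 43.1%, 63.0% and 35.4%. The YY1 motif was in 1 of the 58 members (1.72%), 1.43% of tested genes and 0.71% of all genes. The ERR motif was in 0 of 58 members, 0.29% of tested genes and 0.42% of all genes, shares too low for a count of 0 to stand out. Among the 13 members that rose in LTCR, which all had a promoter, 1 held the NRF1 motif, 1 the GABPA motif and 4 the SP1 motif. A match is a description of these letters in this window and not evidence of a bound site.

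The members were bright and steady. The median of their mean intensities was 3089, against 415 over all tested probe sets, and ranged from 104 for Atp5j2, a small membrane subunit of complex V, to 15237 for Uqcrq, a small subunit of complex III. Their median residual SD was 0.146 on the log2 scale, against 0.215 over all tested probe sets, so that small differences were resolved. It was lowest in complex III, at 0.119, and highest in complex V, at 0.183. In a test for any difference among the 8 groups, limma's moderated F, 33 of 66 members passed, against 27% of all tested probe sets. The share among probe sets as bright as the members was not counted for this test. They were 14 of 30 in complex I, 3 of 4 in complex II, 4 of 7 in complex III, 5 of 11 in complex IV and 7 of 14 in complex V. Among these 33 genes, LTCR had the highest mean in 19 and MET in 7, while ROS had the lowest in 11, GLIP in 6 and GM in 5. These genes passed a test over the same groups, which favours groups with extreme means. LTCR also had the largest share of all probe sets called against CON, 19.3%. The same counts over all probe sets past the F test were not made. The smallest adjusted p of the F test was 1.8e-05, for Uqcr10.

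**Figure D1:**
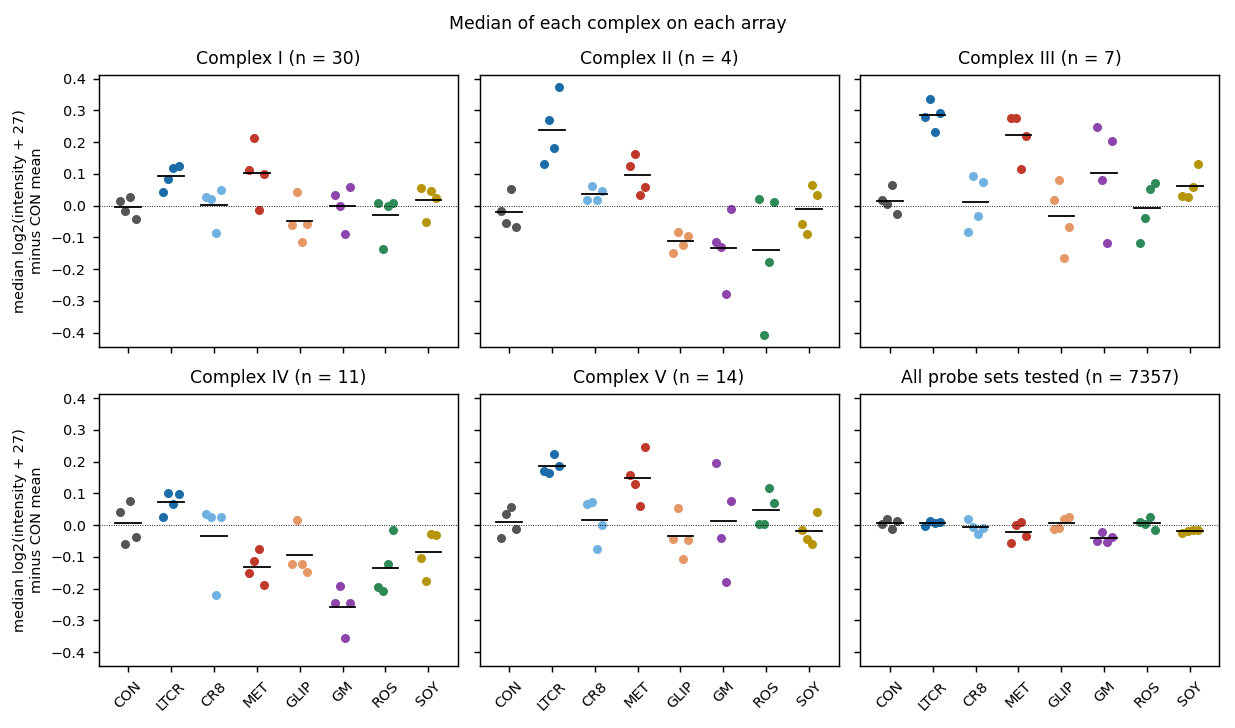
Each point is 1 array: the median over the genes of a complex of log2(intensity + 27) minus the gene's CON mean, with a last panel for all tested probe sets; bars mark group means. Complex III lies at 0.28 ± 0.04 in LTCR and 0.22 ± 0.08 in MET, and complex IV at -0.26 ± 0.07 in GM and -0.13 ± 0.05 in MET (SD, n = 4). These are means of array medians and differ from the medians by complex in the text, which are taken over the log2 differences of the genes.

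Long-term restriction was compared with the control diet. Of the 66 members tested, 13 rose and 2 fell in LTCR, with rises in complexes I, II, III and V and 0 calls among the 11 tested members of complex IV. The share of all probe sets called was 19.3%, with 7.53% higher and 11.8% lower. The median log2 difference was 0.11 over the members and 0.00 over all probe sets, and 47 of 66 members lay above 0. In 18 members the arrays of the 2 groups did not overlap, against 21.2% of all probe sets. By complex the median was 0.07 in complex I, 0.25 in complex II, 0.18 in complex III, 0.09 in complex IV and 0.25 in complex V, and each stayed above 0 with quantile normalization and with arrays scaled to equal medians. Bright probe sets as a whole were also shifted: of the 621 tested probe sets brighter than 3089, 25.8% were higher, 11.4% lower and the median was 0.11. Of the 33 members above that level, 10 were higher and 0 lower, with a median of 0.18.

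**Figure D2:**
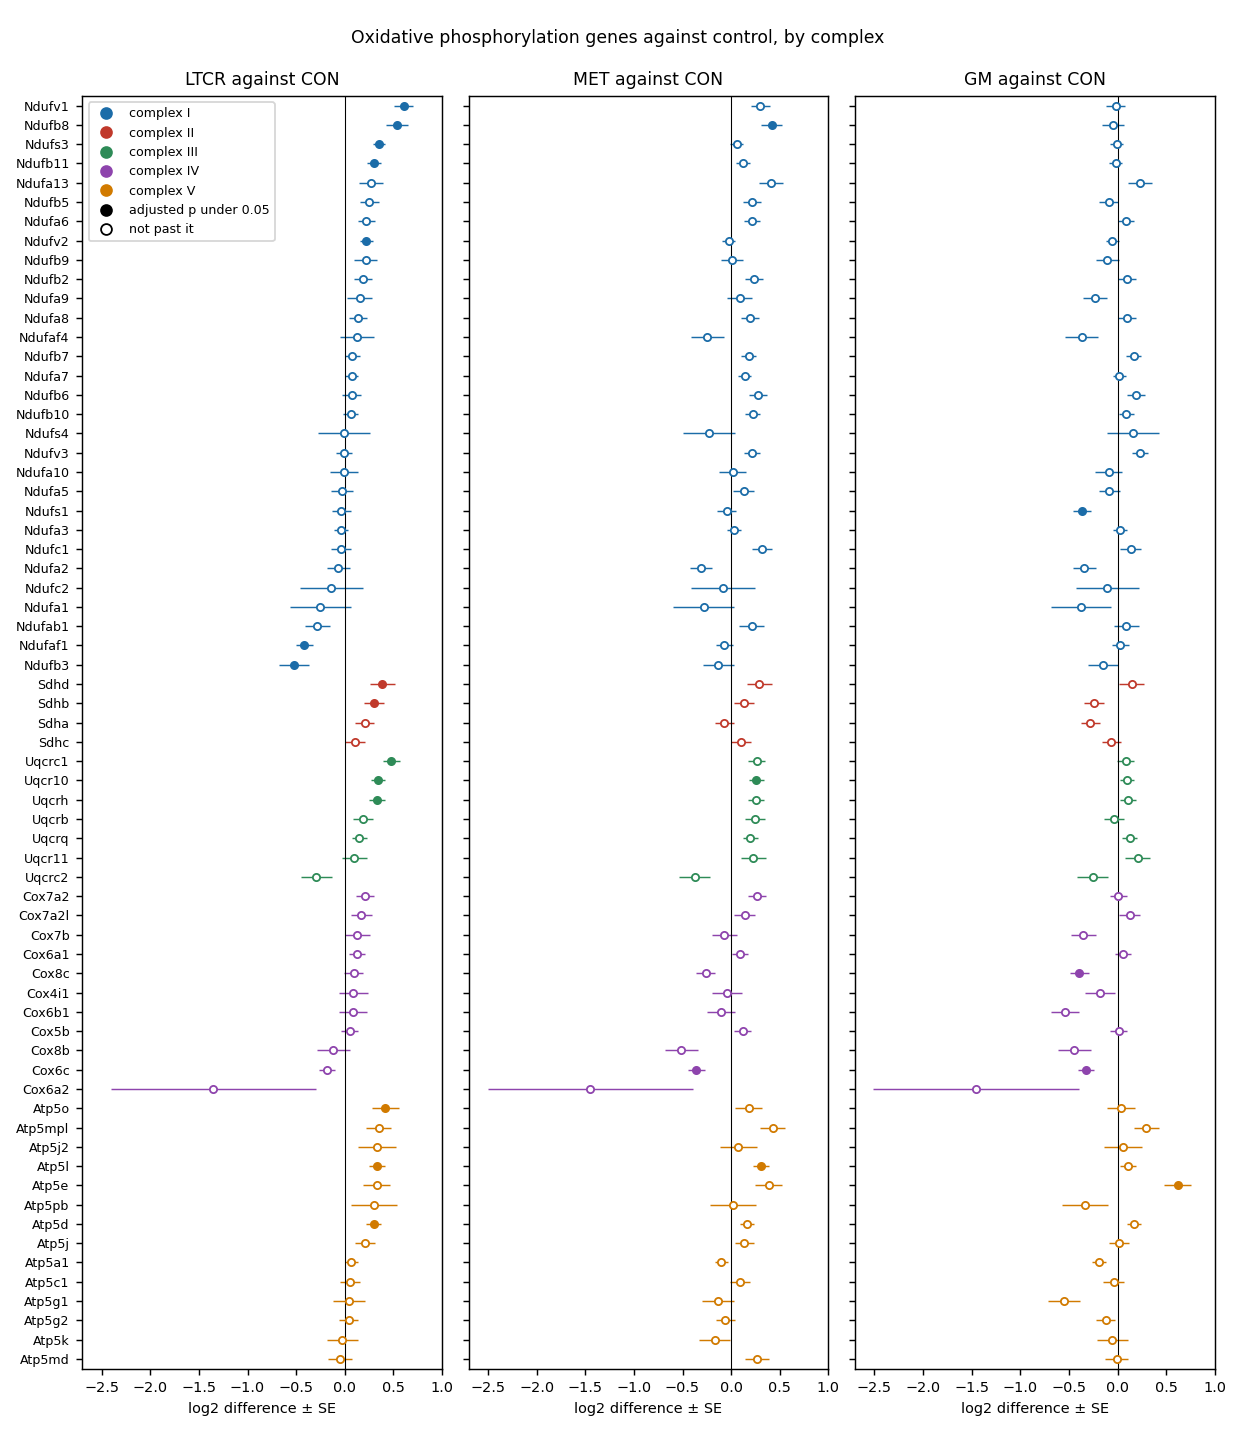
Log2 difference from CON with its standard error for each of the 66 tested genes, by complex and ordered by the LTCR value, in LTCR, MET and GM. Filled points passed the adjusted p threshold; complex IV has 0 filled points in LTCR and 2 in GM, both below 0. The long bars belong to Cox6a2, whose CON arrays ranged from 49 to 2359.

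In complex I, 2 core subunits of the part that oxidises NADH rose, Ndufv1 and Ndufv2. Ndufv1 binds NADH and the flavin that takes up its electrons. It read 6075, 6760, 6626 and 6617 on the CON arrays and 11038, 8941, 9277 and 10688 on the LTCR arrays. Every LTCR array was above every CON array, and the difference of 0.61 ± 0.10 (adjusted p = 5.77e-05, limma) was the largest rise of any member in this comparison. Its partner Ndufv2, an iron-sulfur protein, rose by 0.22 ± 0.07 and lost its call without replicate 2 or 4 of either group. Ndufs3, a core subunit near the site where quinone binds, read 3466, 3002, 3491 and 3397 in CON and 4292, 4078, 4201 and 4488 in LTCR. The LTCR arrays formed a narrow band above all CON arrays, with a difference of 0.35 ± 0.07 (adjusted p = 0.000297, limma). Ndufs1, the core subunit with several iron-sulfur clusters, did not pass, at -0.03 ± 0.10.

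Of 24 measured accessory subunits of complex I, 2 rose and 1 fell. Ndufb8 belongs to the membrane arm and is a common marker of assembled complex I. It read 2933, 2568, 3114 and 2612 in CON and 3806, 4002, 3887 and 4654 in LTCR, without overlap (0.54 ± 0.11, adjusted p = 0.000716, limma). Ndufb11, also of the membrane arm, read 3585, 3579, 3553 and 3209 in CON and 4165, 4123, 4388 and 4457 in LTCR, again without overlap (0.30 ± 0.07, adjusted p = 0.00325, limma). Ndufb3, another membrane arm subunit, went the other way, from 2765, 2298, 2086 and 1704 in CON to 1310, 1578, 1713 and 1466 in LTCR. The groups overlapped by 1 array pair, and the difference of -0.52 ± 0.16 (adjusted p = 0.0184, limma) missed the threshold without CON replicate 1 (adjusted p = 0.0900) or LTCR replicate 1 (adjusted p = 0.0715).

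Ndufaf1, which helps to assemble the membrane arm of complex I, fell. It read 605, 637, 632 and 597 in CON and 446, 426, 481 and 471 in LTCR. The LTCR arrays all lay below the CON arrays (-0.42 ± 0.09, adjusted p = 0.000937, limma), and the call held under all 43 alternative settings tried. The other complex I assembly factor of the set, Ndufaf4, did not pass.

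Complex II is succinate dehydrogenase, an enzyme of both the chain and the tricarboxylic acid cycle. Its iron-sulfur subunit Sdhb read 4646, 5364, 4972 and 5488 in CON and 6113, 6090, 6229 and 6863 in LTCR, without overlap (0.31 ± 0.10, adjusted p = 0.0350, limma). The membrane anchor Sdhd read 6517, 6688, 8199 and 6084 in CON and 9962, 9582, 7264 and 9143 in LTCR. A single CON array lay above the lowest LTCR array (0.38 ± 0.13, adjusted p = 0.0351, limma). Sdha, the flavoprotein, had 0.20 ± 0.10 and the anchor Sdhc 0.11 ± 0.10, which did not pass. Neither call of complex II held in every setting: that of Sdhb was lost without CON replicate 1 or 3 or LTCR replicate 1 or 4, and that of Sdhd without CON replicate 1, 2 or 4 or LTCR replicate 1, 2 or 4.

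In complex III, 3 of 7 members rose. Uqcrc1, a core protein on the matrix side, read 4024, 4138, 4286 and 4051 in CON and 5864, 5991, 5279 and 5894 in LTCR, a difference of 0.48 ± 0.09 (adjusted p = 0.000247, limma). Uqcr10, a small subunit, read 4533, 4556, 4560 and 4274 in CON and 6105, 5665, 5532 and 5488 in LTCR, a difference of 0.34 ± 0.07 (adjusted p = 0.00116, limma). Uqcrh, the hinge protein that helps cytochrome c dock and whose promoter above holds the GABPA motif, read 4252, 3646, 4047 and 3910 in CON and 4809, 5103, 4652 and 5477 in LTCR (0.34 ± 0.08, adjusted p = 0.00364, limma). In all 3 genes the LTCR arrays lay above all CON arrays. The second core protein, Uqcrc2, had -0.30 ± 0.16 and did not pass.

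In complex V, 3 of 14 members rose. Atp5l, subunit g of the membrane part, read 7200, 7869, 8073 and 6830 in CON and 10215, 9264, 8808 and 9439 in LTCR, without overlap (0.33 ± 0.08, adjusted p = 0.00354, limma). Atp5d, the delta subunit of the central stalk, read 1411, 1262, 1377 and 1256 in CON and 1756, 1471, 1668 and 1649 in LTCR, also without overlap (0.30 ± 0.07, adjusted p = 0.00469, limma). Atp5o, part of the peripheral stalk that holds the catalytic head, read 3001, 2215, 3373 and 3535 in CON and 3893, 4174, 3457 and 4521 in LTCR. It overlapped by 1 array of each group (0.42 ± 0.14, adjusted p = 0.0358, limma), and its call was lost without CON replicate 1 or 2 or LTCR replicate 1, 2 or 4. The catalytic head subunit Atp5a1 and the central stalk subunit Atp5c1 did not pass.

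**Figure D3:**
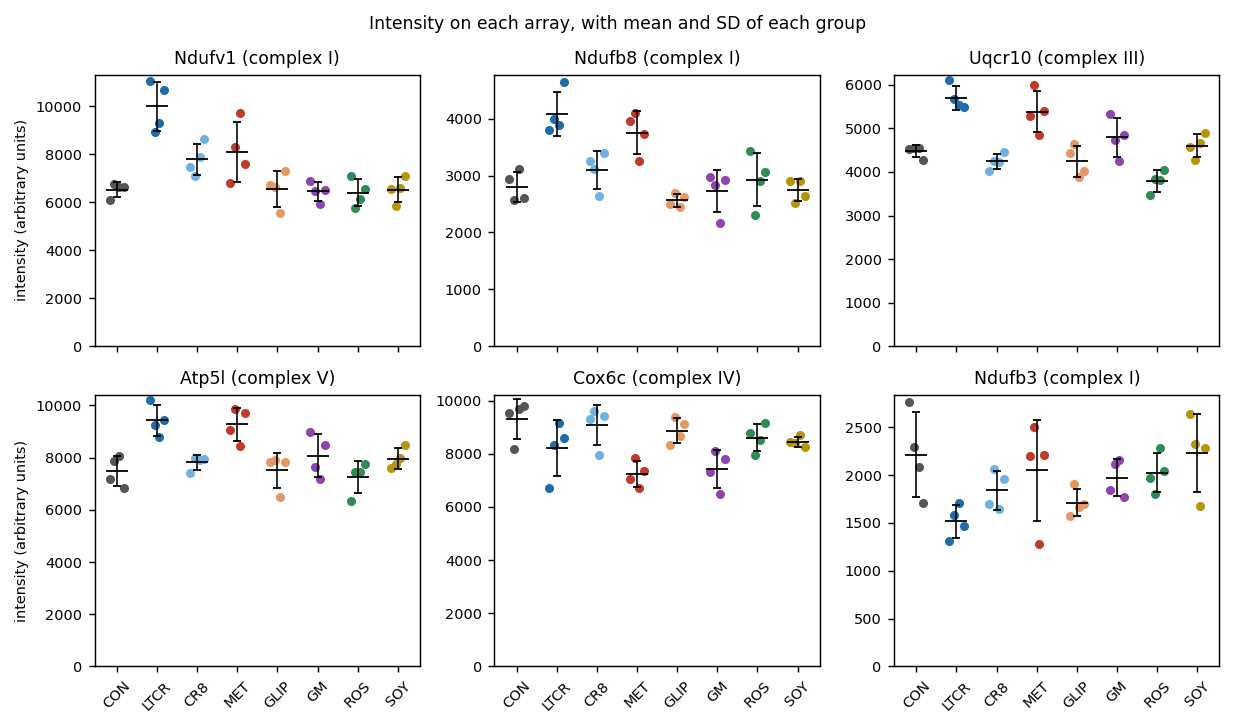
Intensity of 6 members on each of the 32 arrays, with the mean and SD of each group and axes from 0. In LTCR, Ndufv1 lies between 8941 and 11038 and Uqcr10 between 5488 and 6105, above all CON and CR8 arrays.

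Of the 15 members called in LTCR against CON, 8 kept their call under all 43 alternative settings: Ndufv1, Ndufs3, Ndufb8, Ndufb11, Uqcrc1, Uqcr10 and Uqcrh among those that rose, and Ndufaf1. Complex IV had 0 calls in the fit reported and 1 under quantile normalization, in which Cox6c was lower. Other probe sets of a called gene did not always agree on the call. Of the other 3 tested probe sets of Atp5d, 2 also rose, by 0.40 ± 0.10 and 0.43 ± 0.10, and the dimmest had 0.08 ± 0.15. The second probe set of Atp5l had 0.22 ± 0.19 (adjusted p = 0.447, limma), and the call of Atp5l in LTCR was lost with the mean of its probe sets and with quantile normalization. A second probe set of Ndufv2 had 0.26 ± 0.12 without a call (adjusted p = 0.118, limma).

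Genes next to the chain moved in both directions in LTCR. Of 13 electron carriers and transport partners, 2 rose: Cyc1, the cytochrome c1 of complex III whose symbol lies outside the rule, by 0.28 ± 0.09, and Etfb, which passes on electrons from fatty acid oxidation, by 0.25 ± 0.09. Of 15 assembly factors outside the rule, 1 rose and 4 fell, and their median was -0.19. Cox17, a copper chaperone for complex IV, fell by 0.78 on the log2 scale, with SE 0.14, Uqcc1, needed for complex III, by 0.65, Acad9, an assembly factor of complex I, by 0.54, and Coa3, of complex IV, by 0.35, while Foxred1, of complex I, rose by 0.36 ± 0.10. Of 10 regulators of mitochondrial biogenesis, 2 rose and 2 fell. Esrra, the nuclear receptor ERR alpha, rose by 0.68 ± 0.13 and Yy1 by 0.35 ± 0.12, whereas Gabpa, a subunit of the factor that binds the GABPA motif, fell by 0.52 and Ssbp1, which binds single-stranded mitochondrial DNA, by 0.50.

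In the tricarboxylic acid cycle 3 of 15 measured genes rose and 0 fell, among them Suclg1 by 0.54 ± 0.09 and Idh2 by 0.52 ± 0.13. Mitochondrial ribosomal proteins had 5 of 57 higher and 4 lower, with a median of -0.03. Genes of mitochondrial protein import had 2 of 16 higher and 3 lower; Tomm70a, a receptor on the outer membrane, fell by 0.54. Subunits of the vacuolar proton pump, a relative of complex V in other membranes, had 1 of 13 higher and 3 lower. The subunits encoded by mitochondrial DNA are not analysed here.

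Cell type markers moved in the same comparison. Of 13 hepatocyte markers, 6 were higher and 2 lower in LTCR, and their summed intensity ranged from 228594 to 261272 in CON and from 267230 to 302981 in LTCR. Of 11 tested Kupffer cell and macrophage markers, 0 were higher and 2 lower, with sums over 15 genes of 5143 to 6241 in CON and 3164 to 4619 in LTCR. Of 10 tested endothelial markers, 2 were higher, with sums over 12 genes of 2483 to 3499 in CON and 3489 to 4197 in LTCR. Of 3 tested keratin and other bile duct markers, 2 were lower, Krt8 and Krt18, which hepatocytes also express. Stellate cell and fibroblast markers went both ways, with Col1a2 higher (0.37) and Lum lower (-0.57). Of the markers of red blood cell precursors only Alas2 was called, and it was lower (-0.82). The sums over 4 genes of that list overlapped, at 7275 to 13464 in CON and 7059 to 12167 in LTCR. Their medians were 8690 in CON and 10695 in LTCR. The part of these shifts in the members' differences was not tested. The hepatocyte products Alb, the main plasma protein, and Apoa1, the main protein of HDL, read 25619 or above on every array.

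Restriction for 8 weeks was compared with the control diet and with LTCR. Against CON, 0 of 66 members were called in CR8 by limma, against 0.544% of all probe sets (0.177% higher and 0.367% lower), 4 members had an unadjusted p under 0.05, and in 3 the arrays did not overlap, against 7.2% of all probe sets. The member median was 0.00 and the members with the smallest p were Atp5d (0.21 ± 0.07, adjusted p = 0.227, limma) and Ndufv1 (0.25 ± 0.10, adjusted p = 0.287, limma), neither past the threshold. Among cell type markers, Krt8 was lower in CR8 than in CON (-0.70, adjusted p = 0.0318, limma). Against CR8, 10 members were higher in LTCR and 0 lower, against 12% of all probe sets called, 4.65% higher and 7.34% lower. The 10 called members were 4 in complex I, 3 in complex III and 3 in complex V. The arrays of 14 members did not overlap, against 16.1% of all probe sets. The member median was 0.13, against 0.01 over all probe sets, and 52 of 66 members lay above 0. Among the 33 members brighter than 3089, 7 were higher, against 11.9% of the 621 probe sets of that brightness.

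Uqcr10 and Ndufs3 separated LTCR from CR8 most firmly. Uqcr10 read 4032, 4251, 4226 and 4464 in CR8, below all LTCR arrays given above (0.42 ± 0.07, adjusted p = 0.000352, limma). Ndufs3 read 3303, 3615, 3383 and 3452 in CR8, again below all LTCR arrays (0.31 ± 0.07, adjusted p = 0.00236, limma). These were the only 2 of the 10 calls that held under all 43 alternative settings.

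Ndufv1 read 7481, 7102, 7892 and 8630 in CR8, between the CON and LTCR arrays, and was higher in LTCR by 0.36 ± 0.10 (adjusted p = 0.0159, limma). Uqcrc1 read 4274, 4521, 5070 and 4622 in CR8 and was higher in LTCR by 0.32 ± 0.09 (adjusted p = 0.0159, limma). Ndufb8, at 3251, 3113, 2642 and 3402 in CR8, was higher in LTCR by 0.40 ± 0.11 (adjusted p = 0.0163, limma). In these 3 genes the CR8 arrays all lay below the LTCR arrays. Atp5o read 2684, 2651, 2903 and 3089 in CR8, also below all LTCR arrays (0.49 ± 0.14, adjusted p = 0.0205, limma). Uqcrh, Atp5l, Atp5e and Ndufa6 made up the 10, with differences of 0.26 to 0.45. Of 13 hepatocyte markers, Apoa1 (0.33) and Tat (0.53) were higher and Ttr (-0.65) lower in LTCR than in CR8, and of 7 tested stellate cell and fibroblast markers Lum (-0.71) was lower. The part of these markers in the members' differences was not tested.

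Muscle transcripts were present on 2 of the 4 CR8 arrays, as described below, and without the arrays that carry them 2 of the 10 calls were left, Ndufs3 and Uqcr10, with CR8 then resting on 2 arrays. With arrays scaled to equal medians 5 were left. The count fell to 5 without CR8 replicate 1, to 6 without CR8 replicate 2 and to 4 without LTCR replicate 4.

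Metformin was compared with the control diet. In MET, 3 members rose and 1 fell, against 1.83% of all probe sets higher and 2.34% lower (4.17% called in all). The median was 0.12 over the members and -0.03 over all probe sets, and 44 of 66 lay above 0. Complex III had the highest median, 0.24, with 6 of 7 members above 0, and complexes I, II and V had 0.13, 0.12 and 0.11. Complex IV had -0.07, which became 0.01 with arrays scaled to equal medians as all probe sets went from -0.03 to 0.04. In 14 of 66 members the MET and CON arrays did not overlap, against 10% of all probe sets. Among the 621 probe sets brighter than 3089, 9.66% were higher and the median was 0.10, and among the 33 members of that brightness 3 were higher, 1 was lower and the median was 0.18.

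The members that rose were Ndufb8, Uqcr10 and Atp5l, of complexes I, III and V. Ndufb8 read 3953, 4100, 3250 and 3725 in MET, above all CON arrays (0.42 ± 0.11, adjusted p = 0.0273, limma). Uqcr10 read 5279, 5993, 4856 and 5403 in MET, also above all CON arrays (0.26 ± 0.07, adjusted p = 0.0404, limma). Atp5l read 9069, 9851, 8458 and 9725 in MET, with its lowest array above the highest CON array (0.31 ± 0.08, adjusted p = 0.0271, limma). A second probe set of Atp5l had the opposite sign without a call, at -0.19. For the same 3 genes LTCR had 0.54, 0.34 and 0.33 against the same CON arrays.

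Cox6c, a small membrane subunit of complex IV, fell in MET. It read 9532, 8173, 9669 and 9779 in CON and 7056, 7849, 6706 and 7352 in MET, without overlap (-0.36 ± 0.09, adjusted p = 0.0174, limma), and a second probe set had -0.55 ± 0.17 without a call (adjusted p = 0.0658, limma). Of the lists beside the chain, Gabpa fell by 0.57 on the log2 scale and Tomm70a by 0.29, Dld of the tricarboxylic acid cycle fell by 0.34, 2 of 57 mitochondrial ribosomal proteins were higher and 1 lower, and 0 of 13 partners and 0 of 15 assembly factors were called. Of 13 hepatocyte markers, 2 were higher and 1 lower in MET. Of 3 tested bile duct markers, Krt18 fell by 0.93 on the log2 scale, with sums over 6 genes of 4710 to 6101 in CON and 3097 to 3940 in MET, and of 3 tested heart markers Myl4 fell by 0.41. Kupffer cell and endothelial markers had medians of 0.42 and 0.29, with 0 of 11 and 0 of 10 called. The part of these markers in the members' differences was not tested.

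The calls in MET depended on single arrays and on the fit. Without MET replicate 3 there were 10 members higher and 0 lower, without MET replicate 2 or 4 there were 0 higher and 1 lower, without CON replicate 4 there were 0 calls, without CON replicate 1 or 2 there was 1 higher and 1 lower, without CON replicate 3 there were 4 higher and 0 lower, and without the arrays that carry muscle transcripts 0 were called. Equal medians gave 6 higher and 0 lower, and all probe sets then split into 191 higher and 65 lower in place of 135 and 172.

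**Figure D4:**
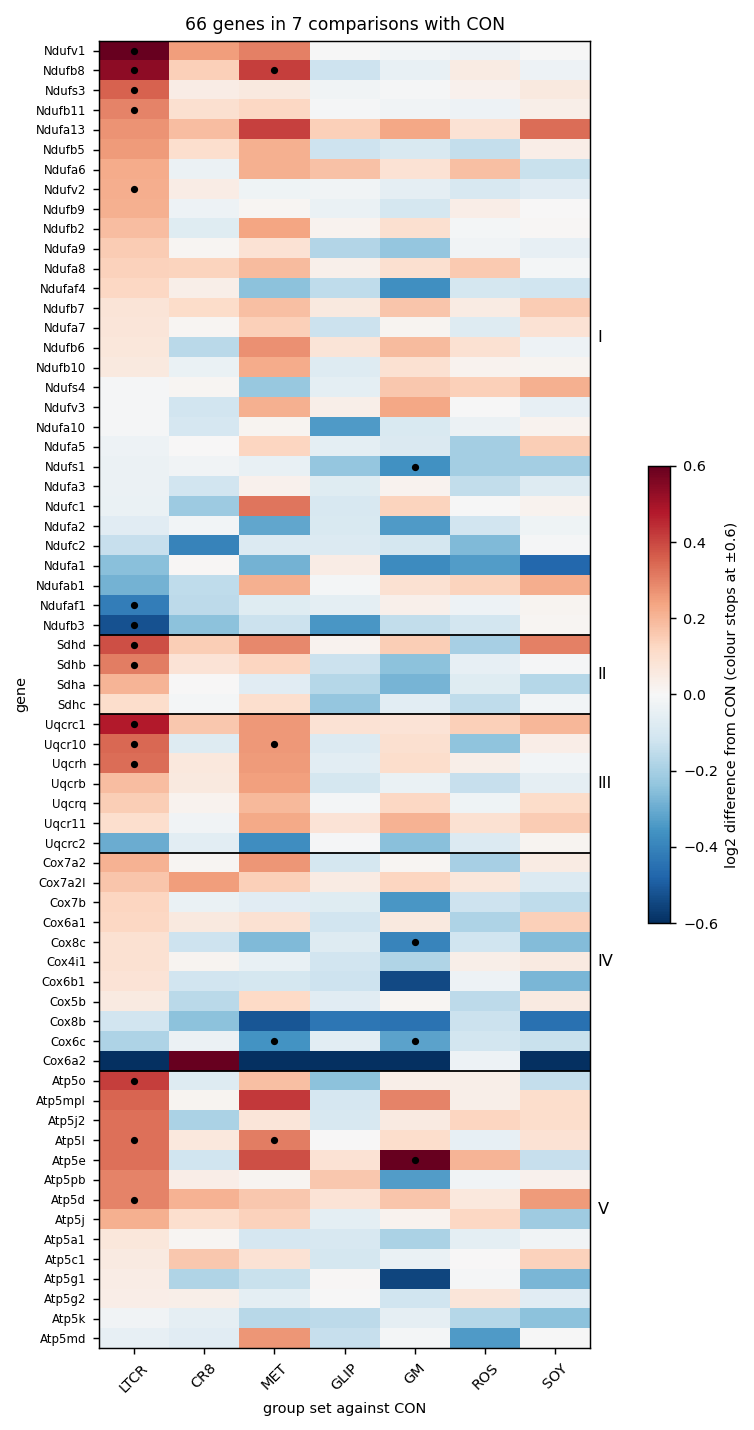
Log2 difference from CON of the 66 tested genes (rows, by complex) in 7 groups (columns), red for higher and blue for lower, with colours saturating at 0.6; dots mark an adjusted p under 0.05. The dots fall in the LTCR, MET and GM columns, with 15, 4 and 4 of them.

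The combination of glipizide and metformin was compared with the control diet and with each drug alone. Against CON, 1 member rose and 3 fell in GM, against 0.87% of all probe sets higher and 0.68% lower (1.55% called in all). In 13 members the arrays did not overlap, against 10.5% of all probe sets, and 5 of these were in complex IV. Among the 621 probe sets brighter than 3089, 4.19% were higher and 0.32% lower in GM, with a median of 0.08. Of the 33 members of that brightness 0 were higher and 1 was lower, with a median of 0.01. Complex IV had a median of -0.32, against -0.05 over all probe sets and -0.01 over all members. Its differences ran from -1.46 to 0.13, and 4 of 11 lay above 0. The 11 include the muscle isoforms Cox6a2 and Cox8b, and Cox6a2 was high on CON replicate 3, at 2359. The complex IV median was -0.35 with quantile normalization and -0.18 with equal medians, where all probe sets had 0.09. The array medians of complex IV lay between -0.36 and -0.19 in GM and between -0.06 and 0.08 in CON, and so did not overlap. In MET they lay between -0.19 and -0.08, also below all CON arrays, so this was not particular to GM. Array medians of other complexes also stood clear of CON in LTCR, MET and GLIP. In GM the median of complex II was -0.15, and that of complex III 0.09.

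Of the 3 genes that fell, 2 belong to complex IV. Cox6c read 7300, 8118, 6480 and 7817 in GM, below all CON arrays (-0.32 ± 0.09, adjusted p = 0.0494, limma), and its second probe set fell by 0.77 on the log2 scale (adjusted p = 0.0238, limma). Cox8c, an isoform of subunit 8 known mainly from testis, read 1793, 1924, 1492 and 1720 in CON and 1298, 1403, 1343 and 1186 in GM, without overlap (-0.40 ± 0.10, adjusted p = 0.0364, limma). Its probe set is bright in liver while that named for Cox8a is dim, and the platform annotation can be old, so which gene it measures is uncertain. Cox6b1 had -0.54 ± 0.14 and narrowly missed the threshold, and Cox7b had -0.35 ± 0.13 (adjusted p = 0.137, limma), both without overlap. The core subunit Ndufs1 of complex I fell, from 2052, 1900, 2156 and 1900 in CON to 1711, 1737, 1226 and 1567 in GM. All GM arrays were below all CON arrays (-0.37 ± 0.10, adjusted p = 0.0494, limma).

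Atp5e, the epsilon subunit of the central stalk of complex V, rose. It read 1915, 1677, 2376 and 1704 in CON and 3474, 2679, 2649 and 3008 in GM, without overlap, a difference of 0.62 ± 0.14 (adjusted p = 0.0228, limma). It read 2398, 2090, 2343 and 3272 in MET and 2250, 1984, 1938 and 1919 in GLIP, so that the GM arrays lay above all GLIP arrays and overlapped with MET.

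Which members were called in GM depended on the scaling, and none of the 4 called genes turned sign under any setting tried. With arrays scaled to equal medians, 5 members were higher (Ndufb7, Ndufv3, Atp5d, Atp5e and Atp5mpl) and 0 lower, and all probe sets split into 413 higher and 19 lower in place of 64 and 50. No GM call held under every setting tried: without CON replicate 4, GM replicate 1 or GM replicate 4 there were 0 calls, without GM replicate 3 or CON replicate 1 there was 1 higher and 0 lower, without CON replicate 2 there were 0 higher and 1 lower, without CON replicate 3 there was 1 of each, and without GM replicate 2 there were 1 higher and 4 lower.

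Against MET, 2 members were lower in GM and 0 higher, against 1.32% and 1.3% of all probe sets (2.62% called in all), and in 6 members the arrays did not overlap, against 8.56% of all probe sets. Ndufb8, which had risen in MET, read 2974, 2839, 2174 and 2928 in GM, below all MET arrays (-0.46 ± 0.11, adjusted p = 0.0201, limma). Sdhb read 5402, 6348, 5322 and 5354 in MET and 4385, 3874, 4053 and 4973 in GM, without overlap (-0.38 ± 0.10, adjusted p = 0.0425, limma). Neither call held with each array left out in turn. Ndufb8 missed the threshold without GM replicate 3 or MET replicate 2, and Sdhb without GM replicate 1, 2 or 3 or any of the MET arrays. Without any 1 of those arrays the Sdhb difference stayed between -0.40 and -0.32. The member median was -0.12, against -0.01 over all probe sets, and 9 of 66 members lay above 0. With equal medians it was -0.06 against 0.05, and 0 members were called. Of 13 hepatocyte markers, Fgb (0.57) and Ttr (0.64) were higher in GM than in MET, and Kupffer cell and endothelial markers had medians of -0.34 and -0.25 with 0 called; their part in these differences was not tested. Against GLIP, 0 of 66 members were called by limma, against 0% of all probe sets, 15 had an unadjusted p under 0.05, and in 7 the arrays did not overlap, against 5.04% of all probe sets.

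Glipizide, rosiglitazone and soy isoflavones alone gave 0 called members against CON by limma. The background was 0.136% of all probe sets in GLIP (0.122% higher and 0.0136% lower), 0.136% in ROS (0.0272% higher and 0.109% lower) and 0% in SOY, and 5, 7 and 8 members had an unadjusted p under 0.05. The arrays did not overlap with CON in 2 members in GLIP, against 5.44% of all probe sets, in 2 in ROS, against 4.85%, and in 3 in SOY, against 5.36%. In GLIP 17 of 66 members lay above 0, with a median of -0.07 against 0.00 over all probe sets. In ROS 24 lay above 0, with a median of -0.03, and the smallest p belonged to Uqcr10, at 3462, 3846, 3826 and 4052, below all CON arrays (-0.24 ± 0.07, adjusted p = 0.252, limma). Among cell type markers, Krt8 was lower in ROS than in CON (-0.77, adjusted p = 0.0329, limma). In SOY 32 lay above 0, with a median of 0.00, which became 0.11 with equal medians as all probe sets went from -0.03 to 0.08. Among the 621 probe sets brighter than 3089 the median was 0.02 in GLIP, 0.02 in ROS and 0.07 in SOY. For the 33 members of that brightness it was -0.07, -0.05 and 0.04.

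Complex IV has isoforms that differ between tissues, and they marked muscle RNA on some arrays. The intensity summed over all probe sets of 25 skeletal muscle markers exceeded 2 times its median over the 32 arrays on 5 arrays. These were CON replicate 3, CR8 replicates 1 and 2, ROS replicate 4 and SOY replicate 3, at 2.68 to 8.18 times the median. Cox6a2, the form of subunit 6A found in heart and skeletal muscle, read 49, 60, 2359 and 70 in CON, 1608, 1853, 50 and 54 in CR8, 50, 58, 70 and 2179 in ROS and 38, 34, 638 and 48 in SOY. On those 5 arrays it lay between 638 and 2359, and on the other 27 between 31.3 and 112. Its liver partner Cox6a1 lay between 10028 and 12991 on the 5 arrays and between 8801 and 12799 on the others, so the ranges overlapped.

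**Figure D5:**
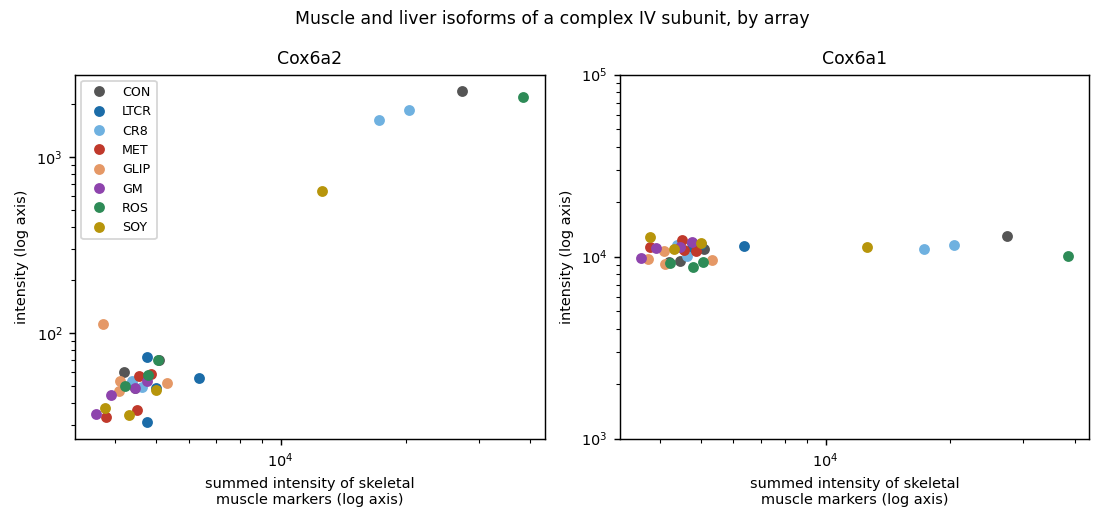
Intensity of Cox6a2 and Cox6a1 on each of 32 arrays against the summed intensity of skeletal muscle markers on log axes. Cox6a2 is at 638 or above on the 5 arrays with high muscle sums and at 112 or below on the rest; Cox6a1 is between 8801 and 12991 on all arrays.

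The other muscle forms followed in part. Cox7a1, the muscle form of subunit 7A, lay between 16.2 and 180 on the 5 arrays and between 10.5 and 69 on the others, while its widely expressed partner Cox7a2 lay between 4300 and 7898 over all arrays. Cox8b, the form of subunit 8 in muscle and brown fat, lay between 292 and 454 on the 5 arrays and between 196 and 402 on the others by its brighter probe set. The probe set named for Cox8a, the form known from liver, lay between 5.3 and 79.4 on all arrays. Of 9 heart markers, Myh6 and Myl7 were at 73.5 or below on every array, Tnni3 reached 137.2 and Nppa lay between 189.5 and 464.2. The sums over these 9 genes ranged from 1170 to 1837 in CON, 1203 to 2527 in ROS and 794.3 to 1530 in the other groups. The difference of Cox6a2 between LTCR and CON was -1.35 ± 1.06 (adjusted p = 0.409, limma) and rested on CON replicate 3. Without the 5 arrays, 14 members were higher and 2 lower in LTCR against CON: of the 15 calls given above, the call of Sdhb was lost, and Atp5e and Atp5mpl were added.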

How the data were processed

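Liver RNA of 32 mice was measured on Affymetrix MG-U74Av2 arrays, per the labels, with 4 arrays in each of 8 groups. The deposited values are linear intensities, 1 per probe set and array, which the authors had scaled: without the top and bottom 2% of values, each column had a mean between 500.4 and 500.5. The software, detection calls, scan dates and batches are not given in the sources used here. The number of arrays limits the precision.

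Of 12422 probe sets other than controls, the platform annotation gave 1 symbol for 10833; 10 probe sets that name a subunit together with another gene were left out, among them those of Cox7c and Ndufs5, so that near-identical copies do not enter by that route. Values were analysed as log2(intensity + 27), 27 being the 20th percentile of all intensities. Probe sets were kept where the mean of these values exceeded that of the 40th percentile of intensity, 94.2, which left 7357. Where a gene had several probe sets, the brightest on average stood for it.

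A single linear model over all groups, with 24 residual degrees of freedom, was fitted in R 4.3.3 by limma 3.58.1, using lmFit and a trended eBayes, for 10 comparisons and a moderated F, each with Benjamini-Hochberg adjustment over all tested probe sets at 0.05. The fit was tested on simulated data. No set test was run, and lists are described by counts and medians. Members and lists were chosen with earlier results of these data known. Values on every array are given for the 4 called genes of each complex with the smallest p and those called in the other direction in LTCR against CON, for called members elsewhere (the 6 with the smallest p where more), and for the muscle isoforms.

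All 71 member symbols matched RefSeq (GRCm38.p6), and promoters came from its table. Replicate numbers of the titles did not pair arrays: over 112 pairs of arrays of different groups with the same number, deviations from the group means correlated between -0.23 and 0.24, with a median of -0.01. Alternatives were quantile normalization, equal medians, other added values and filters, fits to 2 groups, the replicate number as a block, other choices of probe sets, and leaving out each array or the arrays with muscle transcripts.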

Additional observations from a re-analysis of the deposited data

Results flagged for a closer look

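An array was singled out where it stood apart from the other 3 of its group by Dixon's test, which chance does in about 1 group in 20; 19 of 224 groups of values did so (8.48%). Cox6a2, the muscle form of a complex IV subunit, stood apart on CON replicate 3 at 2359.2 (others 48.6 to 70.2), ROS replicate 4 at 2179 (others 50 to 70.4), SOY replicate 3 at 638.1 (others 34.4 to 47.7) and, at a far lower level, GLIP replicate 3 at 112.4 (others 47.1 to 53.3). The first 3 of these arrays had high summed muscle markers and GLIP replicate 3 did not.

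In complex I, Ndufb11 was low on CON replicate 4 at 3208.8 (others 3553 to 3585) and on GM replicate 3 at 3096.9 (others 3521 to 3582). Ndufb8 was low on GM replicate 3 at 2174 (others 2839 to 2974), and Ndufs1 high on GLIP replicate 2 at 1828.8 (others 1645 to 1667). In complex II, Sdhb was high on MET replicate 2 at 6348.4 (others 5322 to 5402) and Sdhd on GLIP replicate 1 at 7738.2 (others 6614 to 6727). In complex III, Uqcr10 was low on CON replicate 4 at 4274.4 (others 4533 to 4560). In complex IV, Cox6c was low on CON replicate 2 at 8173.3 (others 9532 to 9779), and Cox8c high on CR8 replicate 1 at 1786.8 (others 1503 to 1528). In complex V, Atp5l was low on CR8 replicate 1 at 7408.6 (others 7917 to 7986) and on GLIP replicate 3 at 6480.1 (others 7831 to 7892).

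Array medians relative to CON stood apart on CR8 replicate 3, which was low over all members at -0.083 (others 0.033 to 0.055) and over complex IV at -0.22 (others 0.026 to 0.036). The complex I median was low on ROS replicate 2 at -0.14 (others -0.0014 to 0.0096), and the complex IV median high on GLIP replicate 2 at 0.016 (others -0.15 to -0.12).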

How the results depend on the processing

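In LTCR against CON, 13 members higher and 2 lower stayed within 1.5 times those counts under all alternatives that kept every array, and leaving out 1 array gave 9 to 15 higher and 1 to 2 lower. Counts of called members moved elsewhere. In MET against CON, 3 higher became 1 with quantile normalization, 6 with equal medians, 5 with the filter at the 60th percentile, 0 in a fit to the 2 groups and 0 without arrays with muscle transcripts (0 to 10 without 1 array), and 1 lower became 0 with equal medians, with the 2 groups alone, with plain-suffix probe sets and without muscle arrays (0 to 1 without 1 array). In GM against CON, 1 higher became 5 with equal medians, 0 with the 2 groups alone and 0 with plain-suffix probe sets (0 to 1 without 1 array), and 3 lower became 0 with equal medians, 0 with no filter, 0 with the 2 groups alone, 1 with the replicate number as a block and 1 without muscle arrays (0 to 4 without 1 array). In LTCR against CR8, 10 higher became 5 with equal medians and 2 without muscle arrays (4 to 11 without 1 array), and 0 lower became 1, Ndufaf1, with an added value of 1, the filter at the 60th percentile, the mean of probe sets per gene and plain-suffix probe sets (0 to 1 without 1 array). In GM against MET, 2 lower became 0 with equal medians, 1 with no filter, 0 with the 2 groups alone, 1 with plain-suffix probe sets and 1 without muscle arrays (0 to 3 without 1 array). The F test called 28 to 40 members without 1 array. The cause of these moves was not tested. The replicate block moved no other count by over 1.5 times. Of 1499 values for 35 called gene results, 217 lost the call and 0 turned sign. Without detection calls, dim genes have no measured background.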
